A study of Mus musculus with 8 samples.

Results

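Ly96 and 9 genes of the Toll-like receptor system were examined in mouse leukaemia cells carrying MLL-AF9, after 4OHT was given to delete Runx1 and Cbfb and in their controls. The 10 genes are Ly96, Tlr4, Cd14 and Cd180 of the lipopolysaccharide receptor group, the surface receptors Tlr1, Tlr2 and Tlr6, the endosomal receptors Tlr7 and Tlr9, and the adaptor Myd88. Each was read from the probe set whose platform annotation gives that symbol alone, the brightest one where a gene has several. All 10 were measured, each by 1 probe set, among 19938 named genes and 35556 probe sets. The group was chosen by the known difference of Ly96 between deleted and control cultures, with genes of the same system set around it, so that difference is given for the 10 genes as a description without a test.

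The deleted group held 4 arrays labelled Runx1Cbfb-KO, from cells given 4OHT (4-hydroxytamoxifen) at 1 µM for 24 h, and the control group held 4 arrays labelled Control, from cells given ethanol for the same time. All cultures, controls included, came from c-Kit-positive bone marrow cells of Runx1 and Cbfb double-floxed mice and carried the leukaemia fusion MLL-AF9 and CreERT2, a Cre recombinase that 4OHT activates. They were grown in cytokine-enriched methylcellulose. There were 2 clones with 2 biological replicates each, which gave 4 sets of 1 deleted and 1 control culture. No 4OHT-treated culture without floxed genes was analysed here, so deletion, 4OHT and active Cre cannot be told apart.

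Toll-like receptors (TLRs) are membrane proteins of innate immune cells that bind molecules of microbes. TLR4 recognises lipopolysaccharide only together with MD-2, the small secreted protein that Ly96 encodes, and CD14 hands lipopolysaccharide to that complex. Most TLRs signal through the adaptor MyD88 to NF-kB, and monocytes, neutrophils and their progenitors carry several of them. RUNX1, with its partner CBFB, is a transcription factor of blood progenitors.

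Values are log2 expression levels made by RMA, on which array medians lay between 6.26 and 6.39 and the quartiles of gene means were 5.28 and 9.03. Probe sets differ in brightness, so a level is compared only with the same gene's level in other arrays. The Runx1 probe set was higher in the arrays labelled Runx1Cbfb-KO (10.82 ± 0.28, SD, n = 4) than in the arrays labelled Control (10.30 ± 0.30, SD, n = 4), against the label. It was higher in 4 of 4 sets, with differences between 0.48 and 0.56 (limma adjusted p = 1.64e-05). Cbfb was at 9.75 ± 0.13 in the arrays labelled Runx1Cbfb-KO and at 9.93 ± 0.08 in the arrays labelled Control (SD, n = 4), lower in 4 of 4 sets, with differences between -0.27 and -0.08 (limma adjusted p = 0.128). Where these probe sets lie relative to the deleted exons was not examined, so these levels do not test the deletion. The groups are named here by their labels. Of the genes that mark such cells, Hoxa9 lay between 10.98 and 11.13 and Meis1 between 9.92 and 10.05 over the 8 arrays. Kit averaged 9.59 ± 0.11 in the arrays labelled KO and 9.95 ± 0.19 in the control arrays (SD, n = 4 each), and fell by 0.36 (limma adjusted p = 0.00404), with a lower level in 4 of 4 sets.

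Ly96 (probe set 10344966) was the gene whose groups separated. In the arrays labelled KO its level was 9.60 and 9.27 in clone 1 and 9.88 and 9.16 in clone 2 (replicates 1 and 2 of each clone, the order used below), against 8.84 and 8.79 in clone 1 and 8.55 and 8.31 in clone 2 in the arrays labelled Control. The lowest array labelled KO lay above the highest control array, and the mean difference was 0.86 ± 0.35 (SD of 4 set differences), or 1.81-fold. The set differences were 0.76, 0.48, 1.33 and 0.86, from 1.40-fold to 2.52-fold. Of the 10 genes only Ly96 had groups that did not overlap, which was the case for 1.17% of all genes.

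**Figure D1:**
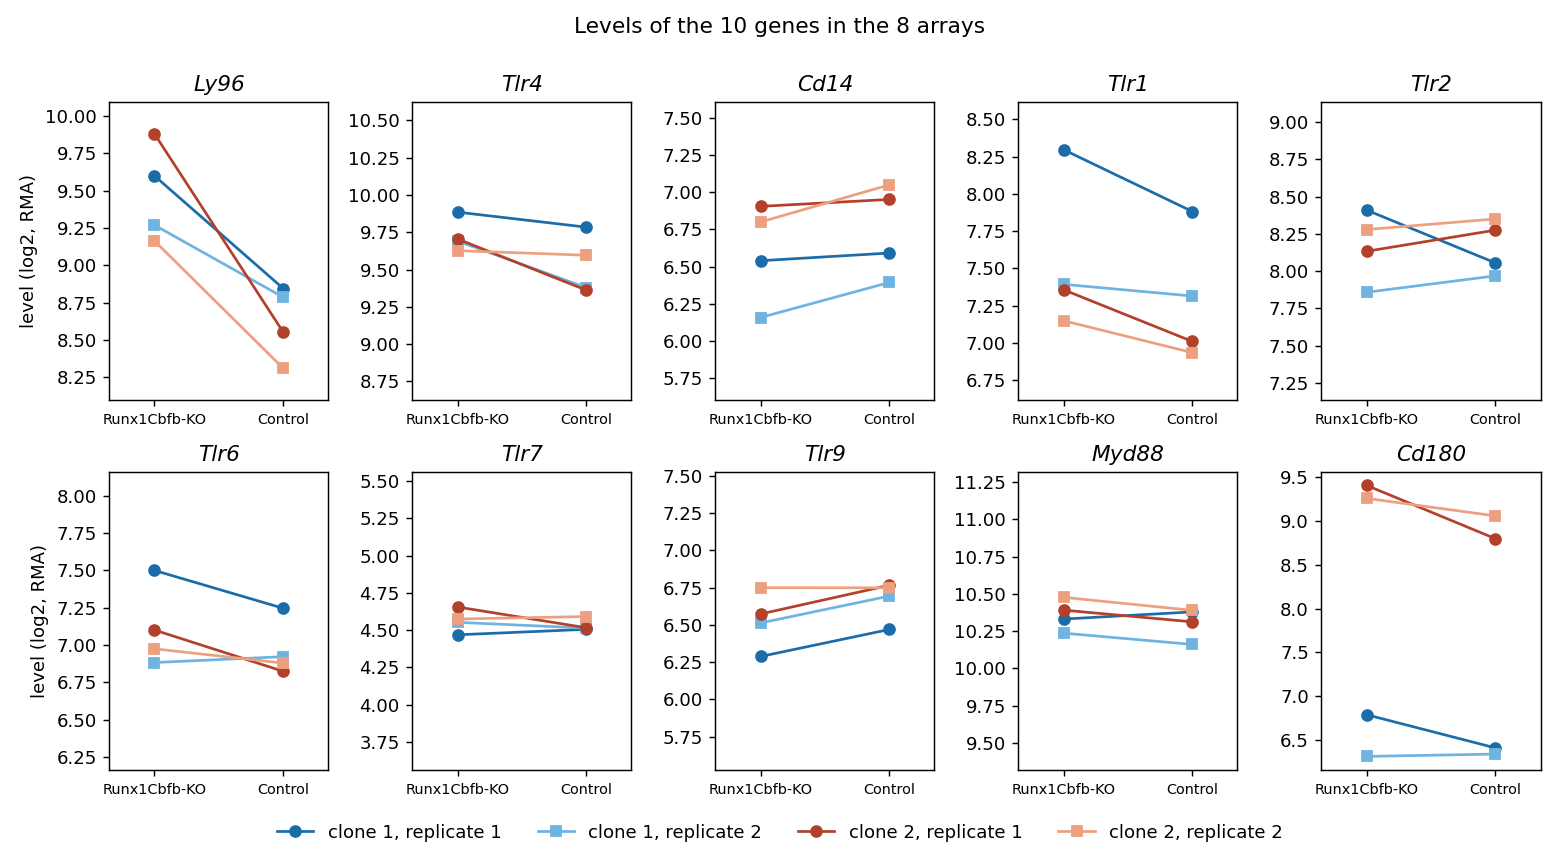
Level (log2, RMA) of each of the 10 genes in the arrays labelled Runx1Cbfb-KO (left) and Control (right), with a line joining the 2 arrays of a set; the vertical axes start at different levels and have the same span except that of Cd180, which is wider. Every Ly96 line lies higher on the left, while the Cd180 lines form a clone 2 pair far above a clone 1 pair.

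Over the 4 sets, 3 of the 10 genes were higher in the arrays labelled KO each time, Ly96, Tlr4 and Tlr1, beside 6.63% of all genes. One gene, Cd14, was lower each time, beside 6.51% of all genes. The other 6 had mixed signs. The median difference of the 10 genes was 0.10, against 0.00 for all genes, and nothing is read from these shares because the choice of Ly96 used the same contrast.

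Tlr4 encodes the signalling chain that binds MD-2, and its mean difference was smaller than that of Ly96, the gene chosen for its difference. Tlr4 stood at 9.89, 9.69, 9.71 and 9.63 in the arrays labelled KO and at 9.78, 9.38, 9.36 and 9.60 in the control arrays. The groups overlapped, since the clone 1 control of replicate 1 was above 3 of the arrays labelled KO. Its difference was 0.20 ± 0.15 (SD, n = 4 sets), with set values of 0.10, 0.31, 0.34 and 0.03.

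Cd14 encodes the membrane-anchored co-receptor that delivers lipopolysaccharide to TLR4 and MD-2. Its level was 6.54, 6.16, 6.90 and 6.80 in the arrays labelled KO, against 6.59, 6.39, 6.95 and 7.05 in the control arrays. The difference of -0.15 ± 0.11 (SD, n = 4 sets) ran opposite to that of Ly96, and both replicate 2 sets, at -0.24 and -0.25, lay further from 0 than both replicate 1 sets, at -0.05 each. Arrays of clone 2 were higher than arrays of clone 1 in both groups.

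Cd180, also called RP105 (probe set 10406928), is a TLR4-like surface protein that lacks the intracellular signalling domain of TLRs and pairs with MD-1, the product of Ly86. In the arrays labelled KO it stood at 6.79 and 6.31 in clone 1 and at 9.41 and 9.26 in clone 2, against 6.41 and 6.34 in clone 1 and 8.80 and 9.06 in clone 2 in the control arrays. The difference between groups was 0.29 ± 0.27 (SD, n = 4 sets) and was below 0 in 1 set, clone 1 replicate 2, at -0.03. Clone, not group, ordered the 8 arrays. Ly86 had a level of 5.79 ± 0.17 in the arrays labelled KO and 5.80 ± 0.16 in the control arrays (SD, n = 4).

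TLR2 works as a pair with TLR1, for triacylated lipopeptides, or with TLR6, for diacylated ones. Tlr1 was at 8.30, 7.39, 7.36 and 7.15 in the arrays labelled KO and at 7.88, 7.32, 7.01 and 6.94 in the control arrays, a difference of 0.26 ± 0.15 (SD, n = 4 sets). Tlr6 was at 7.50, 6.88, 7.10 and 6.97 in the arrays labelled KO and at 7.25, 6.92, 6.82 and 6.88 in the control arrays, a difference of 0.15 ± 0.15 (SD, n = 4 sets). For both genes the clone 1 replicate 1 arrays were the highest of their group.

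Over the 8 arrays the levels of Tlr1 and Tlr6 had a Pearson r of 0.94, as a description, with arrays that share clones and sets. The genes lie next to each other in the RefSeq gene table and encode close paralogs whose probe sets can share signal. Tlr2, their common partner, had mixed signs. It was at 8.41, 7.86, 8.13 and 8.28 in the arrays labelled KO, against 8.06, 7.97, 8.28 and 8.35 in the control arrays, and its set differences were 0.35, -0.11, -0.14 and -0.07. Only clone 1 replicate 1 was above 0, and the mean was 0.01 ± 0.23 (SD, n = 4 sets).

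**Figure D2:**
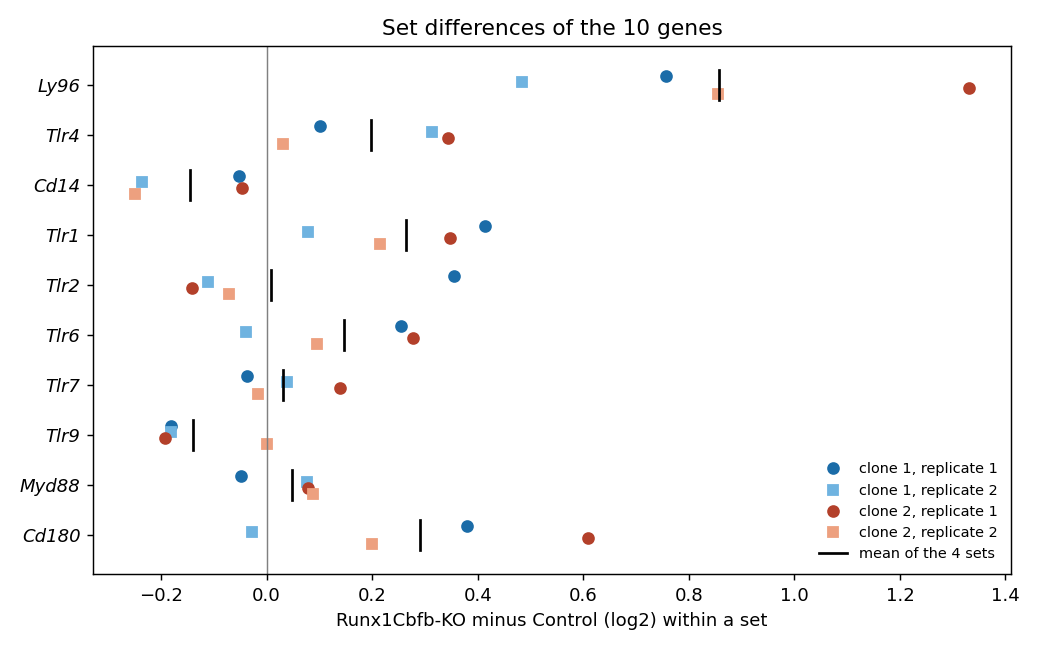
Runx1Cbfb-KO minus Control (log2) within each set, 1 point per set, for the 10 genes; black bars mark the mean of the 4 sets. All Ly96 points lie at 0.48 or above, and the points of the other genes lie between -0.25 and 0.61.

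The endosomal receptors bind nucleic acids, single-stranded RNA in the case of TLR7 and unmethylated CpG DNA in that of TLR9. Tlr7 lay between 4.47 and 4.66 over the 8 arrays, below the lower quartile of gene means, and its difference was 0.03 ± 0.08 (SD, n = 4 sets). Tlr9 was at 6.29, 6.51, 6.57 and 6.75 in the arrays labelled KO and at 6.47, 6.69, 6.77 and 6.75 in the control arrays. It was lower by nearly the same amount in 3 sets (-0.18, -0.18 and -0.19) and level in the fourth (0.00, clone 2 replicate 2), with a mean of -0.14 ± 0.09 (SD, n = 4 sets).

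Myd88, the adaptor through which most TLRs signal, had the smallest SD of set differences among the 10 genes. Its level was 10.36 ± 0.10 in the arrays labelled KO and 10.31 ± 0.11 in the control arrays (SD, n = 4), and its set differences ran from -0.05 to 0.09. The mean was 0.05 ± 0.06 (SD, n = 4 sets).

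Other genes of the pathway were counted from 7 lists, 106 of whose 117 genes were measured. Over the 4 sets limma, with each set as a block and adjustment over all 19938 genes, called 1 of the 106 higher and 1 lower in the arrays labelled KO, beside 0.481% and 0.471% of all genes. Both shares of the lists are close to that background, and the median difference of the 106 genes was 0.01, against 0.00 for all genes. Without clone 2 replicate 2 the 2 calls became 7, and without clone 2 replicate 1 they became 1. The gene that rose was itself a Toll-like receptor, Tlr13, which in mice senses bacterial ribosomal RNA in the endosome. The gene that fell was Ccl3, which encodes a chemokine that TLR signalling induces.

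Tlr13 (probe set 10601385) was at 7.44, 7.36, 7.66 and 6.83 in the arrays labelled KO, against 6.81, 6.88, 6.89 and 6.18 in the control arrays. Both arrays of clone 2 replicate 2 were the lowest of their group. The groups overlapped because the one labelled KO, at 6.83, lay below the control arrays at 6.88 and 6.89. Tlr13 rose by 0.63 ± 0.08 on the log2 scale (SE over 4 sets), or 1.55-fold, in limma (adjusted p = 0.00178), with set differences of 0.62, 0.48, 0.77 and 0.65. The call ended without the pairing of arrays by set (limma adjusted p = 1), with only clone as a covariate (0.536) and when all probe sets were tested (0.2002).

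The other measured receptors outside the 10 genes, Tlr3, Tlr8 and Tlr12, had differences of 0.02, -0.05 and 0.01 and did not pass. Of 12 genes for receptor chaperones and ligand transfer none passed. The smallest p was that of Unc93b1, the transporter that carries endosomal TLRs from the endoplasmic reticulum, at 0.14 ± 0.04 (SE, n = 4 sets; limma adjusted p = 0.162) and above 0 in 4 of 4 sets. Cnpy3 and Hsp90b1, chaperones that fold TLRs, were at -0.11 and -0.04 and did not pass.

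None of 18 adaptor and proximal kinase genes passed. Ikbkb, a catalytic subunit of the IkB kinase, had the smallest p there (0.09 ± 0.05, SE; limma adjusted p = 0.925). Among 16 negative regulators none passed, and the smallest p was that of Irak3, a kinase-like protein that dampens MyD88 signalling (-0.12 ± 0.05, SE; limma adjusted p = 0.568). Of 15 downstream transcription factors none passed. Cebpb, which encodes a C/EBP factor of myeloid cells, came closest at -0.23 ± 0.05 (SE; limma adjusted p = 0.0582) and was below 0 in 4 of 4 sets.

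Among 24 target genes induced by TLR signalling, Ccl3 was the one that passed. Its level was 12.52, 12.33, 10.22 and 10.60 in the arrays labelled KO, against 12.64, 12.42, 10.48 and 10.89 in the control arrays, so clone 1 was higher than clone 2 in both groups. Within sets it fell by 0.19 ± 0.04 on the log2 scale (SE, n = 4 sets; limma adjusted p = 0.0298), or 1.14-fold. The call ended without the variance trend (limma adjusted p = 0.515), with centred arrays (0.324), when all probe sets were tested (0.425), without the pairing (1), with only clone as a covariate (1) and without clone 2 replicate 1 (0.0845). Of 17 genes of other pattern receptors none passed, and Nlrp3, the sensor of an inflammasome, had the smallest p (-0.31 ± 0.08, SE, limma adjusted p = 0.112). Its means, 4.57 in the arrays labelled KO and 4.88 in the control arrays, lay below the lower quartile of gene means. Nlrp3 was lower in 4 of 4 sets and its groups did not overlap, beside 6.51% and 1.17% of all genes.

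**Figure D3:**
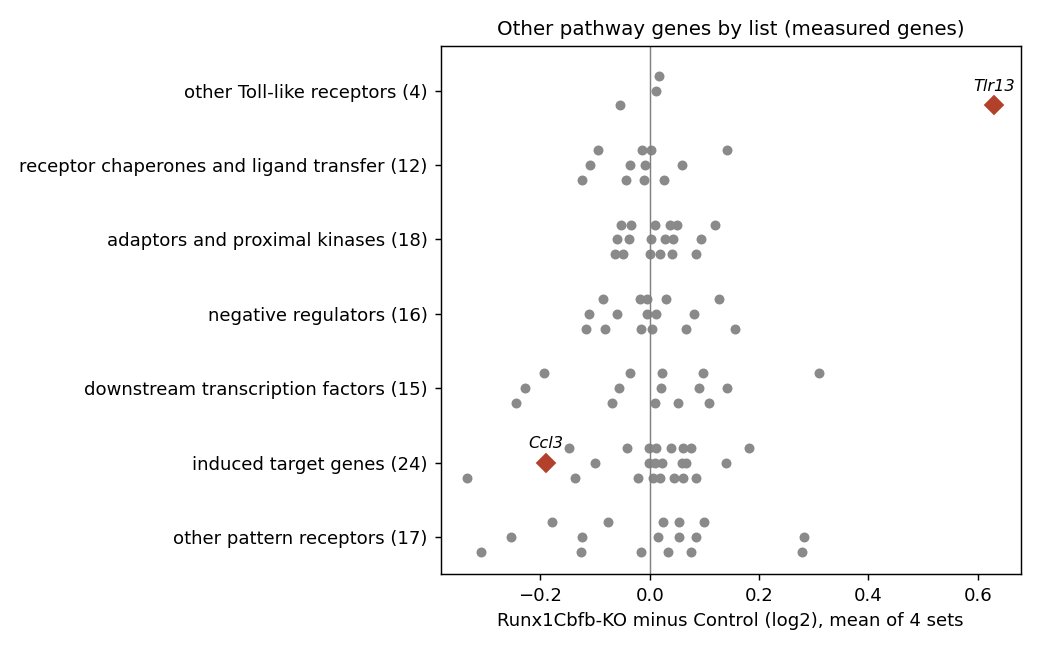
Runx1Cbfb-KO minus Control (log2, mean of 4 sets) of the 106 measured genes of the 7 pathway lists, 1 point per gene; diamonds mark the 2 genes past the limma threshold. Tlr13 lies at 0.63, and every other gene lies between -0.33 and 0.31.

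The upstream sequences of the genes that passed are shown with those letters in capitals that match the core motif of RUNX factors (TGTGGT or TGCGGT) or of PU.1, a myeloid ETS factor (GAGGAA), on either strand, and Cd180 is added for the clone difference described after them. Each is the 250 bases before a RefSeq start that is also the outer edge of the gene in build GRCm38.p6.
Tlr13, chrX:106143025-106143274, plus strand: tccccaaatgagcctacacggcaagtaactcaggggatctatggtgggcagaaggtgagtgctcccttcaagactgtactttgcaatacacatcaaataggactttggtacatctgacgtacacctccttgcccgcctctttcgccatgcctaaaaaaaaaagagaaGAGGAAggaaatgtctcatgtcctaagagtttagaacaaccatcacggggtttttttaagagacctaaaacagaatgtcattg
Ccl3, chr11:83649379-83649628, minus strand: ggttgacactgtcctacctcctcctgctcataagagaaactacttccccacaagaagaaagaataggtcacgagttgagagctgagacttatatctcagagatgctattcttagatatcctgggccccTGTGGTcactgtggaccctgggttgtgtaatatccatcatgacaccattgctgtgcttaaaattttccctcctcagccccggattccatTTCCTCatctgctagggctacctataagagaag
Cd180, chr13:102693297-102693546, plus strand: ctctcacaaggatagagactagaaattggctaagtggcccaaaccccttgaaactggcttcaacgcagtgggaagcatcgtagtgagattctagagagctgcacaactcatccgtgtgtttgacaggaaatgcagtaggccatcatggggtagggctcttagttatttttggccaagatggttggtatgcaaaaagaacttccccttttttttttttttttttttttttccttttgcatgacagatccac

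In the printed windows the RUNX letters occurred once, in Ccl3, starting 122 bases before the start, and the PU.1 letters occurred in Tlr13, starting 83 bases before it, and in Ccl3, starting 33 bases before it. Of all 32817 such windows, 18.6% held the RUNX letters and 23.3% the PU.1 letters. The motifs share no overlapping match here, and a match describes letters only. RefSeq windows were matched for 6 of the 10 genes, and Ly96, Tlr4, Cd14 and Tlr7 were not among them. Of those 6, Tlr6 held the RUNX letters 132 bases before a start, and the PU.1 letters stood in Tlr1, 23 bases before a start, and in Tlr9, 112 bases before its start. Tlr1 and Tlr6 have 2 RefSeq windows each, none at the outer edge of the gene, and 1 of the 2 held the letters.

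The clones were compared among the control arrays, a contrast apart from the deletion. Of the 10 genes 1 passed, Cd180, beside 3.97% of all genes. Its control level was 8.80 and 9.06 in clone 2 and 6.41 and 6.34 in clone 1, which is 5.88-fold higher in clone 2 (log2 difference 2.56 ± 0.16, SE, 2 arrays each; limma adjusted p = 5.65e-06). In the arrays labelled KO the difference was 2.79, from 9.41 and 9.26 in clone 2 against 6.79 and 6.31 in clone 1.

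Cd180 is known from B cells as well as myeloid cells, and B cell markers were examined beside it. Of 11 measured, Cd79b, a chain of the B cell receptor, was higher in clone 2 by 2.99 ± 0.16, Igll1, a surrogate light chain of B cell precursors, was lower in clone 2 by a log2 difference of -2.39 ± 0.19 (SE), and 9 did not pass. The mean level of the list was 5.82 in clone 2 and 5.71 in clone 1 among control arrays. Pax5 and Ms4a1 had clone differences of 0.08 and -0.05. Of 15 monocyte and macrophage markers, Fcgr1 (1.89) and Csf1r (0.70) were higher in clone 2, Gpnmb (-1.82), Adgre1 (-1.23) and Lyz2 (-0.98) were lower by the same limma test, and the mean level of the list was 6.57 in clone 2 and 6.65 in clone 1 among control arrays. Of 13 dendritic cell markers 1 passed, the cytokine receptor gene Flt3, higher in clone 2 by 1.16. Of 10 mast cell and basophil markers 1 passed, Ms4a2, for a chain of the IgE receptor, lower in clone 2 (-0.96). None of 13 neutrophil markers passed between clones. The marker calls of all these lists stand beside 3.97% of all genes. The part of other cells in the Cd180 difference was not tested.

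The other 9 genes did not pass between clones. Cd14 was higher in clone 2 by 0.51 ± 0.15 (SE; limma adjusted p = 0.111) and Tlr1 differed by -0.63 ± 0.26 (SE; limma adjusted p = 0.346), with control levels of 7.01 and 6.94 in clone 2 and 7.88 and 7.32 in clone 1. Ly96 differed by -0.39 ± 0.20 (SE; limma adjusted p = 0.511). The median size of the clone difference was 0.27 for the 10 genes and 0.10 for all genes.

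**Figure D4:**
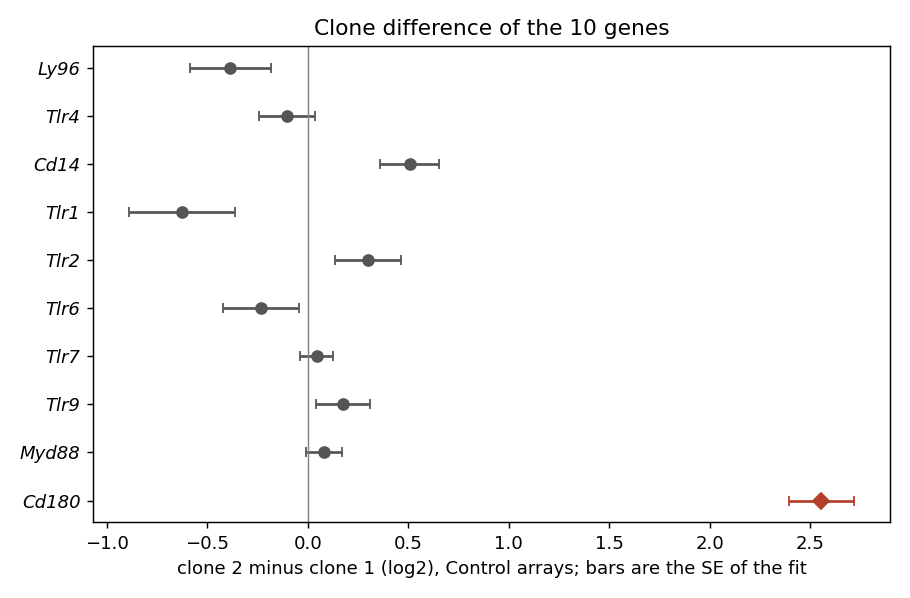
Clone 2 minus clone 1 (log2) among the Control arrays for the 10 genes, with the SE of the limma fit as bars; the diamond marks the gene past the threshold. Cd180 lies at 2.56, and the other 9 genes lie between -0.63 and 0.51.

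Whether the difference between groups depended on the clone was tested as an interaction. None of the 10 genes passed in limma, beside 0.01% of all genes, and at an unadjusted p under 0.05 there was 1 of the 10 and 393 of 19938. That gene was Ly96, whose difference averaged 1.09 in clone 2 and 0.62 in clone 1, apart by 0.47 ± 0.15 (SE; limma adjusted p = 1.00). In fits that left out 1 set, the difference between clones ran from 0.24 to 0.71. The value of 0.71 came without clone 2 replicate 2. That fit leaves 1 set in clone 2, of replicate number 1, so clone and replicate number are mixed there. For Cd180 the difference between groups was 0.40 in clone 2 and 0.18 in clone 1.

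Sets of replicate number 1 had the larger value for 8 of the 10 genes, and for 47.2% of all genes. Ly96 averaged 1.04 in the sets numbered 1 and 0.67 in those numbered 2, and Cd180 averaged 0.49 in the sets numbered 1 and 0.09 in those numbered 2. In a limma fit chosen after these values were seen, none of the 10 passed and 0% of all genes did, while 2 of the 10 and 3589 of all genes had an unadjusted p under 0.05. Cd180 (0.41 ± 0.13, SE; limma adjusted p = 0.183) and Ly96 (0.37 ± 0.16, SE; limma adjusted p = 0.256) were the 2. The labels do not say what a replicate number stands for.

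Genes whose levels ran most like that of Ly96 over the 8 arrays were Calu, an endoplasmic reticulum calcium-binding protein gene (Pearson r = 0.96), Slc37a3, a solute carrier gene (0.94), Tlr13 (0.92), Gtf2h3, which encodes a subunit of the transcription factor TFIIH (0.91), and Anxa1, which encodes the phospholipid-binding protein annexin (0.89). They are the top 5 of 2975 genes that varied with an SD of at least 0.2, given as a description, with arrays that share clones and sets. Arrays of both groups enter this r, so it includes the group difference by which Ly96 was chosen. All 5 were higher in the arrays labelled KO in 4 of 4 sets, beside 6.63% of all genes. All but Anxa1 (limma adjusted p = 0.118) passed as higher between the groups, beside 0.481% of all genes. Because the 5 were picked by likeness to Ly96, nothing is read from these counts. Among the 10 genes, Tlr4 had the highest r with Ly96 over the 8 arrays, at 0.60. Over the 4 set differences its r with Ly96 was 0.22, and the highest was that of Cd180, at 0.91.

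In a culture, more cells that express a gene and more RNA per cell cannot be told apart, so markers of other myeloid cells are given beside the Ly96 and Tlr13 differences. Of 15 monocyte and macrophage markers none passed between the groups, and their summed linear level ran from 2089 to 3548 in the arrays labelled KO and from 2202 to 3289 in the control arrays. Of the 15, 2 were higher and 1 was lower in 4 of 4 sets, beside 6.63% and 6.51% of all genes. Within sets the mean of that list differed by 0.029, 0.082, 0.075 and -0.001 (log2). Of 13 neutrophil markers 2 fell, Ngp and Itgam, beside 0.471% of all genes, with sums from 2820 to 10018 in the arrays labelled KO and from 3618 to 9789 in the control arrays. Of the 13, 5 were lower in 4 of 4 sets and none was higher in all 4, beside 6.51% and 6.63% of all genes, and the mean of the list was lower in 3 of 4 sets (-0.13, -0.19 and -0.16) and higher in clone 2 replicate 1 (0.07). Of 10 mast cell and basophil markers 1 rose, Hdc, beside 0.481% of all genes. The sums ran from 1318 to 1642 in the arrays labelled KO and from 1029 to 1451 in the control arrays. Hdc averaged 9.53 in the arrays labelled KO and 8.90 in the control arrays. This was the highest mean of the list in each group, so Hdc weighs heavily in these sums. Mcpt8 (-0.24) and Gata2 (-0.09), which did not pass, were lower in 4 of 4 sets, beside 6.51% of all genes. The median difference of the mast cell and basophil list was -0.02. None of 13 dendritic cell markers, 11 B cell markers or 9 stress genes passed. In 4 of 4 sets 1 dendritic cell marker was higher, Flt3 (0.29), and 3 stress genes were lower, beside 6.63% and 6.51% of all genes. The part of these cells in the differences was not tested.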

How the data were processed

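Total RNA of 8 cell cultures was labelled with whole-transcript kits and hybridised to 1 Affymetrix array each, per the labels' protocols. The deposited values are log2 expression levels per probe set made with RMA, per the submitters' processing notes; the sources used here give neither its version nor the chip definition nor the genome build, and the values set the log base, since they ran from 2.60 to 13.77. The platform annotation listed 23410 of 35556 probe sets, 21789 with 1 gene symbol and 1621 with several, and 12146 were unlisted. Probe sets with several symbols named no gene, and the brightest probe set was kept for the 999 genes with more than 1.

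Fits used limma 3.58.1 in R 4.3.3 with empirical Bayes moderation that follows mean level, two-sided, with Benjamini-Hochberg adjusted p under 0.05 over 19938 genes. Deleted and control arrays were compared with the set (clone and replicate number) as a block, since the series' design text compares 4 sets. Deviations from group means correlated within every set (r from 0.72 to 0.82) more than between sets. The fit had 3 residual degrees of freedom, and moderation added 9.72. The 4 sets come from 2 clones and were treated as independent. The labels call the replicates biological and do not say what separated them. For the comparison of groups, p-values rest on spread between these sets, moderated toward that of genes of similar level. SE values are those of the fit and SD values are over arrays or set differences. The clone contrast used 4 cells of clone by group, and the interaction a separate effect per clone. With no set term, the clone contrast took its spread from arrays within a cell and treated the 2 arrays of a set as independent. The fits were tested on simulated data. For the clone contrast the simulated arrays were independent, without the correlation within sets, so that simulation does not test the effect of this correlation. The number of arrays limits the precision.

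The members, gene lists, named genes (all members, the targeted genes, list genes past the threshold or with the smallest p, and the 5 genes most like Ly96) and tests were chosen with earlier results of these data known. Kit, Hoxa9, Meis1, Tlr3, Tlr8, Tlr12, Cnpy3, Hsp90b1 and Ly86 and the marker genes were named after their values were seen. Alternatives changed the pairing, variance model, weights, scaling, probe sets, dim genes or left out a set. Upstream sequences are those of RefSeq, GRCm38.p6.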

Additional observations from a re-analysis of the deposited data

Results flagged for a closer look

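Tlr7 in the control arrays had 1 array apart from the other 3. The levels were 4.51, 4.51 and 4.52 against 4.59 in clone 2 replicate 2, and that gap was 0.876 of the group's range, above the critical value of Dixon's ratio for 4 samples. The group's SD was only 0.04, and the gene lay near the low end of the scale on every array. This was the only one of 20 groups of 4 arrays past that value, and chance passes about 1 in 20.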

How the results depend on the processing

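The Ly96 difference kept its direction under all 14 alternatives, between 0.70 and 0.98, the extremes both from leaving out 1 set. Leaving out 1 set could not change that direction, since all 4 set differences were above 0. Changes of the variance model leave the mean difference as it is. Ly96 was chosen for this difference, so the range is a description. Of 411 recalculated values of other single results, 399 kept direction and side of the threshold, or moved by less than the spread between sets. The 399 include values near 0 whose sign changed, such as the Tlr2 difference between groups, from -0.11 to 0.06. Another 9 lost a call (Tlr13 and Ccl3, given above) and 3 gained one. The 3 were the Ly96 interaction without clone 2 replicate 2 (0.71), the Cd14 clone difference with array weights (0.51, limma adjusted p = 0.0168) and the Tlr1 clone difference without clone 1 replicate 2 (-0.91). The first leaves 1 set in clone 2 and the last 1 set in clone 1. Their spread was taken from the other genes and sets. The Cd180 clone difference passed in all 13 alternatives, between 2.43 and 2.69 (largest adjusted p = 0.000863), and Tlr7 had no value where the dimmest genes were left out.

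Counts moved more, and the cause was not tested. The 190 genes called between groups became 0 with no replicate block (317 had an unadjusted p under 0.05), 13 without the variance trend, 88 with centred arrays, 0 when all probe sets were tested (1834 unadjusted), 23 with only clone as a covariate, 388 with array weights, and 98 to 418 when a set was left out (98 without clone 1 replicate 2, 110 without clone 2 replicate 1 and 418 without clone 2 replicate 2). The 2 pathway genes called became 0 with no replicate block, with only clone as a covariate and when all probe sets were tested, 1 without the trend, 6 with array weights and 1 to 7 without 1 set. The 792 genes called between clones became 477 with all probe sets tested, 1599 with array weights and 385 to 588 when a set was left out (385 and 469 without replicate 1 and replicate 2 of clone 1, 475 without clone 2 replicate 2). The 2 interaction calls became 0 without the trend (304 unadjusted), with all probe sets tested (776) and with no replicate block in 4 cells (178), 1 with quantile normalization, 4 with array weights, 14 with centred arrays and 5 to 224 when a set was left out (5 and 13 without replicate 1 and replicate 2 of clone 1, 224 and 40 without those of clone 2).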
